A study of Mus musculus with 6 samples.

Results

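The 32 genes described here are known for their activity in endothelial cells, the cells that line blood and lymph vessels. They were measured by RNA sequencing in osteoblasts, the bone-forming cells, sorted from the mandible (lower jaw) and the tibia (shin bone) of mice. The genes come from a named list, and transcript values were summed for each symbol. All 32 were among the 19679 symbols in the deposited table, and 29 of them had a mean of at least 0.5 RPKM over the 6 libraries, as did 12752 genes in all. RPKM is the number of reads per kilobase of transcript and per 1 M mapped reads. Lyve1, Sox17 and Tal1 were under that limit and were not tested.

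There were 3 mandible and 3 tibia libraries. Both groups came from P9 mice (postnatal day 9) with the transgene Col1a1*2,3-GFP, in which a piece of the Col1a1 promoter marks osteoblasts with green fluorescent protein. Cells freed with collagenase were sorted for the fluorescence. Every one of 3 dissections pooled tissue of about 50 mice and gave 1 library per bone, so that each library is a pool and not an animal. No group had a treatment, and the sort was by the transgene alone, with no step in the labels to remove vessel or blood cells.

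Vessels enter bone together with the cells that build it. Endothelial cells respond to vascular endothelial growth factor (VEGF) and angiopoietins from nearby cells, are held together by their own cadherin and claudin, and keep their identity through ETS and SoxF transcription factors. The capillaries near the growth plate of long bones carry high Pecam1 and Emcn and are known to lie close to bone-forming cells, while the marrow is drained by wide sinusoids that carry scavenger receptors such as Stab2. Pecam1, Esam, Icam2, Tek, Vwf, Stab1, Lyve1, Eng, Erg and Tal1 are also active in some blood or marrow cells.

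The sorted cells matched their label by their main genes. The 12 osteoblast genes, with Bglap, Col1a1 and Spp1 the highest, made up between 14.1% and 21.5% of all RPKM. The 32 endothelial genes made up between 0.0328% and 0.136%. Library totals, worked out from the smallest RPKM steps, lay between 49.0 and 57.8 M reads. At these totals the 24 endothelial genes with 1 transcript and a known length had about 45 reads or more in every library, except Lyve1, whose lowest library had about 13. Both libraries of dissection 3 stood apart from the others in leukocyte genes. The 20 leukocyte genes summed to 6532 RPKM in mandible library 3 and 6718 in tibia library 3, and to between 786 and 1525 in the other 4. The 6 haemoglobin genes rose over dissections 1, 2 and 3 at both bones. They went from 0.717% to 4.51% of all RPKM in the mandible and from 1.87% to 9.78% in the tibia. In these bulk libraries, fewer cells of a type and less RNA in each cell cannot be told apart.

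Promoters of 3 endothelial genes that were lower in the mandible in the test that compares the bones within each dissection (values below) are shown here. RefSeq windows of 300 bases, from 250 before to 50 after the start of transcription in GRCm38.p6, were found for 17 of the 32 genes. They covered 5 of the 10 genes that passed the test with the dissection as a block, and 3 of these 5 held at least 1 of 3 short motifs searched on both strands: AGGAAG for ETS-type, AACAAT for SOX-type and AGATAA for GATA-type factors. The windows run 5′ to 3′ along the gene, and capitals mark the motifs.
Emcn, chr3:137340828-137341127, plus strand: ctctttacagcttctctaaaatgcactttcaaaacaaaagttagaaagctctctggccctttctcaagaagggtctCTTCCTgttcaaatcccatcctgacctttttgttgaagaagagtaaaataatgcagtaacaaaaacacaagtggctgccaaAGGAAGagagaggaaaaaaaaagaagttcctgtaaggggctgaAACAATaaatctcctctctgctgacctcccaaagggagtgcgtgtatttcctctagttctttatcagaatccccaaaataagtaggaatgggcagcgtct
Tek, chr4:94739039-94739338, plus strand: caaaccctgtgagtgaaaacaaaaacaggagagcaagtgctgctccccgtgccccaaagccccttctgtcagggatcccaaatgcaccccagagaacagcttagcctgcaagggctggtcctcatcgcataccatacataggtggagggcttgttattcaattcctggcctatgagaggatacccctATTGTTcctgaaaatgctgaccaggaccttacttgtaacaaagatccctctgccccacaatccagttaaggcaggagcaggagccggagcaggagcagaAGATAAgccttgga
Stab1, chr14:31168592-31168891, minus strand: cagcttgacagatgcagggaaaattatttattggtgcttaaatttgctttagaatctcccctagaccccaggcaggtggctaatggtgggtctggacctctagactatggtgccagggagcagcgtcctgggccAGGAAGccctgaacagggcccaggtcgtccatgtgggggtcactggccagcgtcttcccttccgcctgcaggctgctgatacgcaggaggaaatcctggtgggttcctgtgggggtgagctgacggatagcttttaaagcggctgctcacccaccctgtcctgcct

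In the Emcn window the ETS-type letters began at -174, on the opposite strand, and at -93 from the start site, and the SOX-type letters at -50. Tek held SOX-type letters at -63, on the opposite strand, and GATA-type letters at 37. Stab1 held ETS-type letters at -116. The Kdr and Flt4 windows held none of the 3. Over the 22 windows of the 17 genes, ETS-type letters were in 11, against 35.4% of all 32851 windows in the table. SOX-type letters were in 3 (13.6%) against 10.7%, and GATA-type letters in 3 (13.6%) against 11.2%. The motifs did not overlap in the printed windows, and a match of letters is not a measured binding site.

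Endothelial genes stood at a higher level in the tibia cells than in the mandible cells in nearly every comparison of the same dissection. Summed over the 32 genes, the mandible reached 148, 180 and 193 RPKM in dissections 1, 2 and 3, and the tibia 510, 250 and 352. All 3 tibia sums lay above all 3 mandible sums, with tibia library 1 the highest. The tibia sum was 3.43 times the mandible sum in dissection 1, 1.39 times in dissection 2 and 1.83 times in dissection 3. Of the 32 genes, 28 were lower in the mandible in all 3 dissections (26 of the 29 tested, against 13.4% of all genes tested). The exceptions were Eng, Dll4, Erg and Sox17. The libraries of the 2 bones did not overlap for 19 of the 32 (18 of the 29), the mandible being below each time, against 3.05% of all genes tested.

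**Figure D1:**
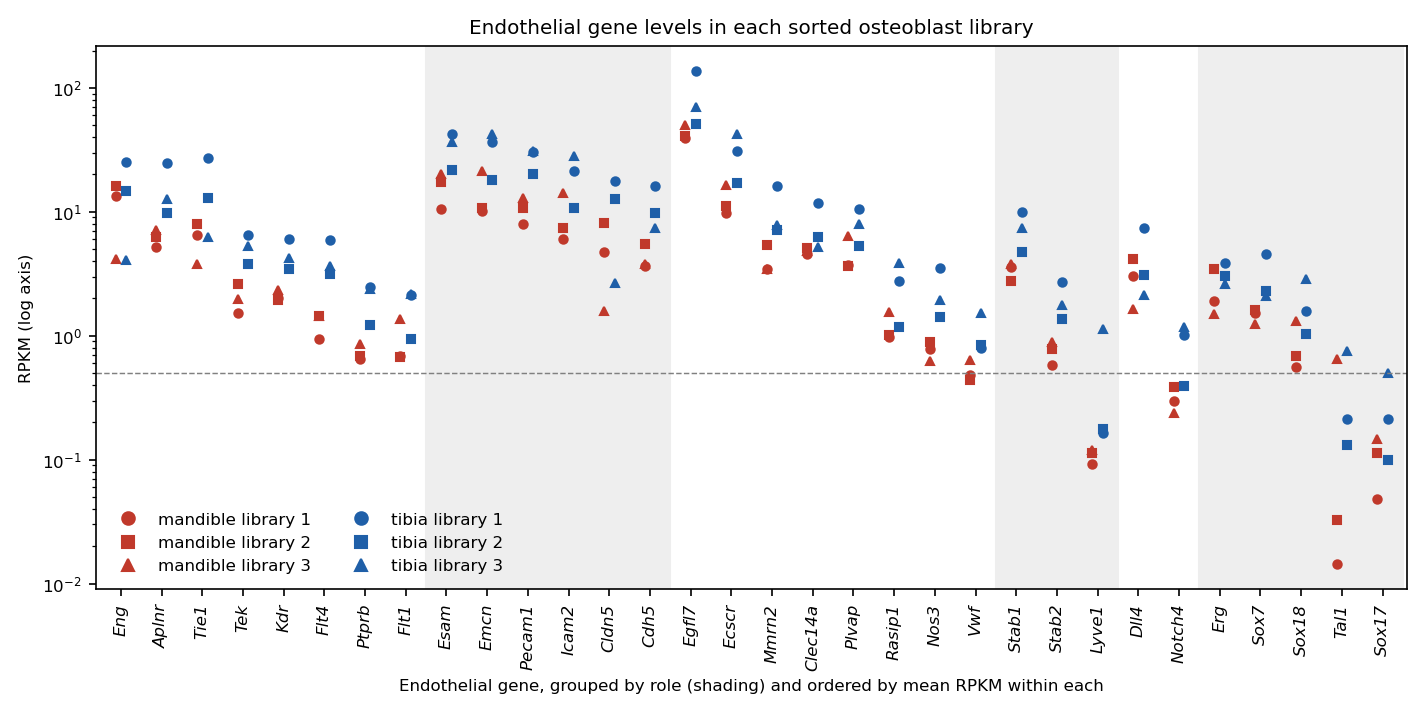
RPKM of the 32 endothelial genes in each of the 6 libraries, on a log axis, grouped by role (shading), with red symbols for mandible and blue for tibia and 1 shape for each dissection. The dashed line marks 0.5, and blue symbols lie above red ones of the same shape for 28 of the 32 genes in all 3 dissections.

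Whether the difference passed a test depended on how the dissections were treated. With bone site as the only term, 0 of the 29 tested genes passed at an adjusted p of 0.05 in limma, in either direction, while 0.102% of all genes tested passed on the lower and 0.87% on the higher side. An unadjusted p under 0.05 was reached by 18 of the 29, all lower in the mandible, against 2.13% of all genes on that side. The smallest adjusted p was 0.0992 for Flt4. The dissection was then added as a block, which compares the bones within each pool of mice, as paired by experiment names in the labels. With the block 10 of the 29 passed, all lower in the mandible, against 2.05% of all genes on that side (4.44% passed on the higher side). They were Kdr, Flt4, Tek, Ptprb, Pecam1, Cdh5, Icam2, Emcn, Ecscr and Stab1. In GRCm38 the genes of Flt4, Pecam1 and Cdh5, the lowest of the 10 by fitted value, span chr11:49609679-49652739, chr11:106654213-106715281 and chr8:104101613-104144504. Log2 fold changes below are mandible minus tibia on log2(RPKM + 0.5), with their standard error (SE), and adjusted p-values come from limma over all 12752 genes.

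The fitted log2 fold changes of the 29 ran from -1.38 to -0.25, with a median of -0.98, against a median of 0.12 over all genes tested. Quantile normalization put these medians at -1.10 and -0.01. Of the 29, 1 gene (Notch4) had a mandible mean under 0.5 RPKM and so reached the limit through its tibia values, and without any limit the median over all 32 was -0.94. By dissection the median log2 difference of the 29 was -1.56, -0.48 and -0.87 in dissections 1, 2 and 3, where all genes stood at 0.09, 0.15 and 0.10. Leaving out tibia library 1, which was the highest of the 6 libraries for 20 of the 29 (9.12% of all genes), moved the median to -0.74. Without dissection 1 the block fit called 3 genes (Flt4, Pecam1 and Emcn) and without dissection 2 it called 3 (Tek, Pecam1 and Ecscr). Without dissection 3 it called 9, of which 7 were among the 10. All were lower in the mandible, a side on which 0.878%, 0.533% and 2.73% of all genes tested were called in these fits. Pecam1 was called in each of these fits. With bone site alone and without both libraries of dissection 3, 3 genes passed (Flt4, Pecam1 and Cdh5), against 1.29% of all genes on the lower side.

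**Figure D2:**
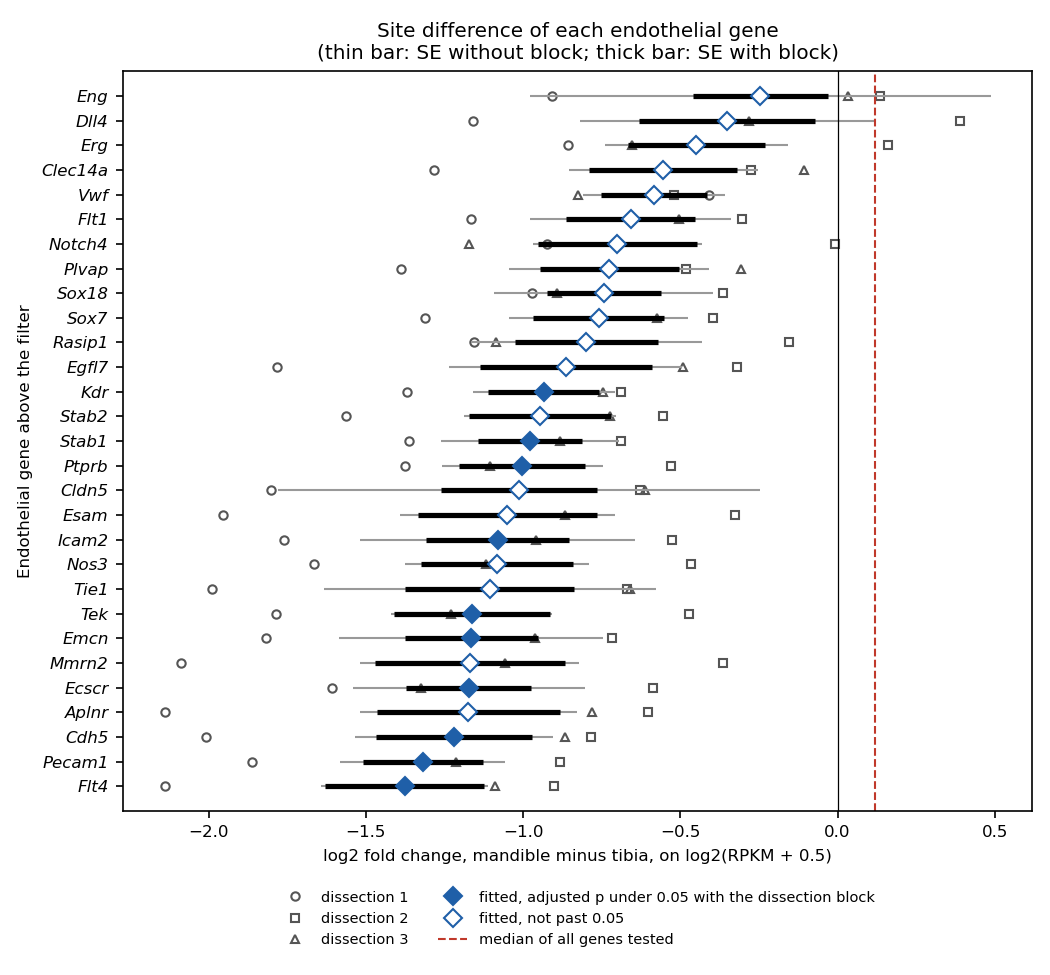
Log2 fold change, mandible minus tibia, of the 29 tested endothelial genes (diamonds; filled where the adjusted p was under 0.05 with the dissection as a block), with the SE of both fits and the difference in each dissection. All 29 fitted values lie left of 0, and the circles of dissection 1 lie farthest left for most genes, among them Flt4 (fitted at -1.38) and Pecam1 (-1.32).

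Of the 8 receptors, among which Ptprb is counted as a receptor-type phosphatase, 4 were called lower with the block, against 2.05% of all genes tested. Flt4, the receptor for VEGF-C and VEGF-D, stood at 0.944, 1.44 and 1.45 RPKM in the mandible (dissections 1, 2 and 3) and at 5.87, 3.13 and 3.64 in the tibia. The bones did not overlap, and the log2 fold change was -1.38 (SE 0.26, adjusted p = 0.0992; 0.0310 with block). Kdr, the main signalling receptor for VEGF-A, was at 2.02, 1.94 and 2.32 RPKM in the mandible and at 5.99, 3.44 and 4.23 in the tibia. Its mandible libraries lay close together and below each tibia library (-0.93, SE 0.23, adjusted p = 0.202; 0.0335 with block). Flt1, a high-affinity VEGF-A receptor that limits signalling through Kdr, was at 0.908 ± 0.402 and 1.75 ± 0.696 RPKM (SD, n = 3) and did not pass in either fit (-0.66, SE 0.32, adjusted p = 0.650; 0.110 with block).

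Tek, the angiopoietin receptor also called Tie2, was at 1.52, 2.60 and 1.96 RPKM in the mandible (dissections 1, 2 and 3) and at 6.47, 3.81 and 5.28 in the tibia. No mandible library reached the lowest tibia library (-1.16, SE 0.26, adjusted p = 0.156; 0.0454 with block). Ptprb, the phosphatase that acts on Tek and on VE-cadherin, was at 0.646, 0.688 and 0.850 against 2.47, 1.21 and 2.402 RPKM (-1.003, SE 0.26, adjusted p = 0.236; 0.0392 with block). These values did not overlap either, and tibia library 2 was the lowest of its group. Tie1, the partner of Tek, ranged from 3.78 to 7.96 RPKM in the mandible and from 6.26 to 27.3 in the tibia, with its lowest library at each bone in dissection 3 (-1.11, adjusted p = 0.643; 0.0653 with block). Without tibia library 1 it stood at -0.59. Aplnr, the receptor for apelin, was at 6.21 ± 0.995 and 15.7 ± 7.81 RPKM and did not pass (-1.17, SE 0.34, adjusted p = 0.331; 0.0667 with block).

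Endoglin (Eng), a co-receptor for TGF-beta and BMP ligands that mesenchymal cells carry too, had the highest mean RPKM of the receptors over the 6 libraries and the smallest fitted difference. By the mean of the tibia alone, Aplnr (15.7) and Tie1 (15.5) were above it (14.7). It was at 13.3, 16.1 and 4.19 RPKM in the mandible (dissections 1, 2 and 3) and at 25.4, 14.6 and 4.08 in the tibia. The bones overlapped, and dissection 3 was low at both (-0.25, SE 0.73, adjusted p = 0.976; 0.503 with block). Its sign turned without mandible library 3 (0.32) and without tibia library 1 (0.30).

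Of the 6 junction and adhesion genes, 4 were called with the block, and the median log2 fold change of the 6 was -1.12, beside -1.05 for the 8 receptors. Pecam1, the platelet and endothelial cell adhesion molecule, was at 7.99, 10.7 and 12.9 RPKM in the mandible (dissections 1, 2 and 3) and at 30.4, 20.1 and 30.7 in the tibia. The highest mandible library lay well under the lowest tibia library (-1.32, SE 0.26, adjusted p = 0.114; 0.0153 with block, the smallest of the 29). Of its 4 transcripts in the table, NM_001032378 held 46.7% of the summed RPKM. Cdh5, which encodes VE-cadherin of the adherens junction, was at 3.66, 5.48 and 3.82 RPKM against 16.3, 9.80 and 7.38. All tibia libraries were above all mandible libraries (-1.22, SE 0.31, adjusted p = 0.241; 0.0405 with block).

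Emcn, the sialomucin endomucin of capillaries and sinusoids, whose promoter is shown above, was at 10.1, 10.7 and 21.5 RPKM in the mandible (dissections 1, 2 and 3) and at 36.9, 18.0 and 42.3 in the tibia. Mandible library 3 lay above tibia library 2, so that the bones overlapped, yet each dissection had the higher value in the tibia (-1.17, SE 0.42, adjusted p = 0.460; 0.0297 with block). Icam2, an adhesion molecule of endothelium, leukocytes and platelets, had the same order of libraries, at 5.98, 7.34 and 14.1 against 21.4, 10.8 and 27.9 RPKM (-1.08, SE 0.44, adjusted p = 0.533; 0.0446 with block). Esam, a tight junction adhesion molecule, had the highest mean RPKM of the group, though under Emcn in both libraries of dissection 3, at 10.6, 17.3 and 20.0 against 42.5, 21.8 and 36.9 RPKM. Its bones did not overlap and it did not pass in either fit (-1.05, SE 0.34, adjusted p = 0.411; 0.0817 with block). Cldn5, the claudin of endothelial tight junctions, was at 4.72, 8.06 and 1.58 against 17.7, 12.7 and 2.68 RPKM, low in dissection 3 at both bones (-1.01, SE 0.77, adjusted p = 0.849; 0.0656 with block). Its value was -0.45 without mandible library 3, -0.52 without tibia library 1 and -1.77 without tibia library 3.

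Among genes for secreted, diaphragm and lumen proteins, 1 of 8 was called lower with the block, against 2.05% of all genes tested. All 8 were lower in the mandible in each dissection, against 13.4% of all genes tested. The gene called was Ecscr, a small endothelial membrane protein, at 9.73, 11.2 and 16.5 RPKM in the mandible (dissections 1, 2 and 3) and at 30.7, 17.1 and 42.1 in the tibia. The groups were separate by a narrow gap between mandible library 3 and tibia library 2 (-1.17, SE 0.37, adjusted p = 0.381; 0.0239 with block). Egfl7, a secreted factor of the vessel matrix, was the most abundant of the 32 genes, above 95.8% of all genes by mean RPKM. It was at 39.3, 40.9 and 49.9 RPKM against 136, 51.2 and 70.4, with mandible library 3 just below tibia library 2 (-0.86, SE 0.37, adjusted p = 0.573; 0.113 with block). Without tibia library 1 its value was -0.47.

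The other 6 of this group did not pass in either fit. Mmrn2, a matrix glycoprotein that binds Clec14a, was at 4.10 ± 1.12 and 10.4 ± 5.10 RPKM, with a log2 fold change of -1.17. Nos3, the endothelial nitric oxide synthase, was at 0.764 ± 0.133 and 2.30 ± 1.11 (-1.08, adjusted p = 0.276; 0.0513 with block). Rasip1, needed for vessel lumens, stood at -0.80, Plvap, the protein of the diaphragms across endothelial pores, at -0.73, Vwf, the clotting factor carrier, at -0.58 and Clec14a at -0.55 on the same scale. Clec14a moved to -0.23 without tibia library 1, and Vwf and Rasip1 to -0.38 and -0.50 without tibia library 3. Mandible and tibia libraries did not overlap for Mmrn2, Nos3, Vwf and Clec14a, and did for Rasip1 and Plvap. Of all genes tested, 3.05% had the mandible below without overlap.

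The scavenger receptors of sinusoids and lymphatic vessels were at low to moderate levels. Stab1, found on sinusoidal endothelium and on some macrophages, was at 3.57, 2.77 and 3.80 RPKM in the mandible (dissections 1, 2 and 3) and at 9.95, 4.78 and 7.43 in the tibia. These did not overlap (-0.98, SE 0.28, adjusted p = 0.319; 0.0239 with block). Stab2, the hyaluronan receptor of sinusoids, was at 0.748 ± 0.152 and 1.95 ± 0.677 RPKM, also without overlap (-0.95, SE 0.24, adjusted p = 0.237; 0.0626 with block). Lyve1, a hyaluronan receptor of lymphatic endothelium and macrophages, was at 0.0930, 0.112 and 0.119 RPKM in the mandible and at 0.164, 0.177 and 1.13 in the tibia, where tibia library 3 stood out. Prox1, the factor that defines lymphatic endothelium, was at 0.129 and 0.0863 RPKM on average in mandible and tibia.

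Notch genes differed in how far they followed the others. Dll4, the Notch ligand of arterial and sprouting endothelium, was at 3.03, 4.19 and 1.66 RPKM in the mandible (dissections 1, 2 and 3) and at 7.39, 3.08 and 2.12 in the tibia. The bones overlapped and in dissection 2 the mandible was the higher (-0.35, SE 0.47, adjusted p = 0.951; 0.467 with block). Its value was 0.10 without tibia library 1 and ran down to -0.69 without tibia library 3. Notch4, an endothelial Notch receptor, was at 0.297, 0.388 and 0.240 against 1.01, 0.393 and 1.17 RPKM, with mandible library 2 and tibia library 2 nearly equal (-0.70, SE 0.27, adjusted p = 0.505; 0.148 with block).

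None of the transcription factors passed in either fit. Erg, an ETS factor of endothelium and cartilage, had the highest mean RPKM of them, at 1.91, 3.45 and 1.49 RPKM in the mandible (dissections 1, 2 and 3) and at 3.86, 3.03 and 2.63 in the tibia. The bones overlapped, with the mandible higher in dissection 2 (-0.45, SE 0.29, adjusted p = 0.798; 0.247 with block). Its value was -0.24 without mandible library 3 and -0.73 without mandible library 2. The SoxF factors Sox7 and Sox18, which act in vessel growth, were at 1.46 ± 0.198 and 2.97 ± 1.36 RPKM and at 0.859 ± 0.408 and 1.83 ± 0.950. Their log2 fold changes were -0.76 and -0.74 (adjusted p = 0.0835 and 0.0650 with block). Sox7 stood at -0.46 without tibia library 1, and Sox18 at -0.44 without tibia library 3. The third SoxF factor, Sox17, an arterial regulator, was between 0.0485 and 0.502 RPKM in the 6 libraries. Tal1, a factor of blood and early endothelial cells, was at 0.0144, 0.0326 and 0.655 RPKM in the mandible and at 0.212, 0.132 and 0.759 in the tibia, highest in dissection 3 at both bones.

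Some members also varied between dissections, in opposite directions, though in most fits a smaller share of them passed than of all genes. In an F-test of the 3 dissections with bone site as a term, 6 of the 29 passed (20.7%), beside 34.4% of all genes tested. With quantile normalization 4 passed (13.8%) and with median-of-ratios scaling 3 passed (10.3%), each beside 32.7% of all genes. That order turned without mandible library 1, where 15 of the 29 passed (51.7%), beside 31.2% of all genes. Leaving out mandible library 3 or tibia library 2 gave 3 of the 29 (10.3%), beside 31.5% and 20.1% of all genes, and leaving out tibia library 3 gave 2 (6.9%), beside 28.3%. With all libraries, the F-test called Eng, Cldn5 and Tie1 (adjusted p = 0.00397, 0.00554 and 0.0404) and Icam2, Emcn and Sox18 (0.0468, 0.0428 and 0.0408). Eng, Cldn5 and Tie1 were lower in dissection 3 than in the mean of the other 2, by log2 differences of -1.90, -1.98 and -1.18. Icam2, Emcn and Sox18 were higher there, by 0.95, 0.86 and 0.81. These differences of dissection 3 from the other 2 are descriptions and were not tested themselves. Over Pecam1 in the same library, Cldn5 was at 0.591, 0.754, 0.582 and 0.633 in mandible libraries 1 and 2 and tibia libraries 1 and 2, and at 0.122 and 0.0875 in mandible and tibia library 3. Kdr over Pecam1 stayed between 0.138 and 0.252 in all 6. By summed RPKM the leukocyte and haemoglobin genes were at their highest in the same 2 libraries of dissection 3, and their part in these values was not tested. By share of all RPKM, haemoglobin was at 4.51% in mandible library 3 and at 4.57% in tibia library 2.

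**Figure D3:**
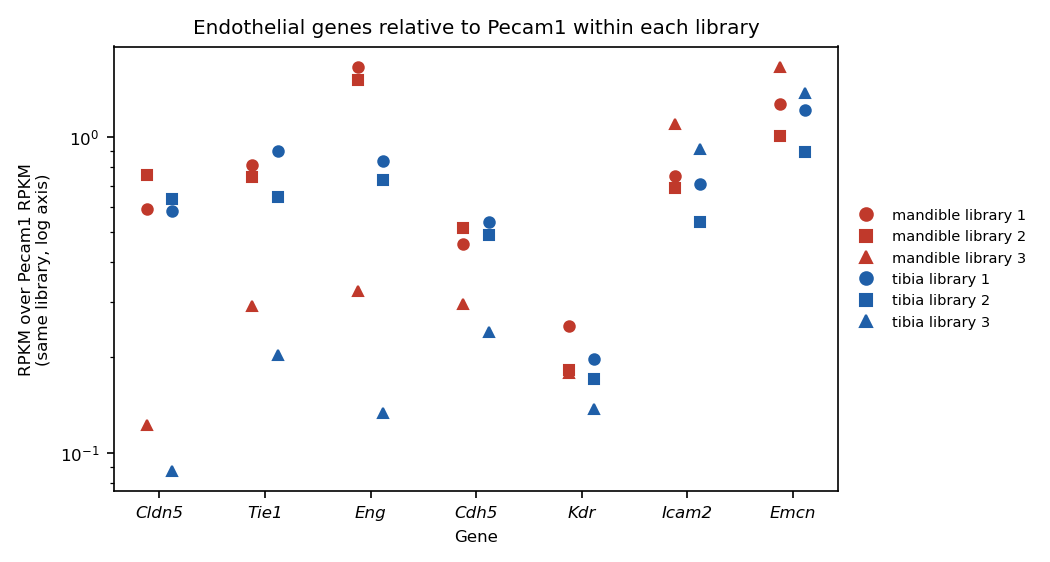
RPKM of 7 endothelial genes divided by that of Pecam1 in the same library, on a log axis, with 1 symbol per library. Triangles mark dissection 3, where Cldn5 was at 0.122 and 0.0875 of Pecam1 and the other 4 libraries lay between 0.582 and 0.754.

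Of 40 further endothelial genes outside the 32, 36 were tested. With bone site alone 0 passed, and 14 of the 36 had an unadjusted p under 0.05, beside 1147 of the 12752 genes tested. With the block 9 were lower in the mandible and 0 higher, against 2.05% and 4.44% of all genes tested. Their median log2 fold change was -0.73, and 33 of the 36 lay below 0. The exceptions were Hey1, Nr2f2 and S1pr1, the first 2 named after their values were seen, at 0.43, 0.011 and 0.19. The mandible was the lower in all 3 dissections for 27 of the 36, against 13.4% of all genes tested. The tibia to mandible ratio of the summed RPKM of the 40 was 2.35, 1.04 and 1.92 in dissections 1, 2 and 3. The most abundant were Fabp4, a fatty acid binding protein also found in fat cells (44.6 and 94.7 RPKM in mandible and tibia), Gpihbp1, the capillary anchor of lipoprotein lipase (24.1 and 75.8), and S1pr1, a sphingosine phosphate receptor (39.1 and 33.4). Of these Gpihbp1 was called with the block (-1.56, adjusted p = 0.426; 0.0315 with block).

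Ligands and partner receptors of the same pathways lay on both sides of 0. Of 27 listed, 24 were tested, and their median log2 fold change was 0.03. With bone site alone 0 passed, and 4 of the 24 had an unadjusted p under 0.05, beside 1147 of the 12752 genes tested. With the block 2 (Vegfc and Pgf, named here after their values were seen) were lower and 1 (Angpt4) higher in the mandible. Of all genes tested, 2.05% were lower and 4.44% higher in that fit. Angpt4, a ligand of Tek, was at 67.5, 64.3 and 14.6 RPKM in the mandible (dissections 1, 2 and 3) and at 9.05, 6.97 and 2.88 in the tibia. The mandible was the higher in each dissection, without overlap (2.70, SE 0.67, adjusted p = 0.218; 0.00140 with block).

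Vegfc, a ligand of Flt4, was at 0.634, 0.677 and 0.657 RPKM in the mandible (dissections 1, 2 and 3) and at 2.77, 1.49 and 2.21 in the tibia (-1.17, SE 0.22, adjusted p = 0.0934; 0.0222 with block). Pgf, a ligand of Flt1, was at 11.6, 11.7 and 13.1 against 19.5, 17.4 and 33.1 RPKM (-0.86, SE 0.27, adjusted p = 0.379; 0.0341 with block). Both were lower in every mandible library than in any tibia library. Vegfd, another ligand of Flt4, was higher in every mandible library, at 0.208, 0.403 and 0.314 RPKM against 0, 0.0910 and 0.0709. It was under the limit of 0.5 RPKM and was not tested. Angpt2, a ligand of Tek, was at 9.25 and 7.02 RPKM on average in mandible and tibia. Its bones did not overlap and it did not pass (0.38, adjusted p = 0.670 in limma, and 0.164 with block). Vegfa, the main ligand of Kdr, was at 3.35 ± 1.06 and 3.31 ± 1.36 RPKM (0.04, SE 0.31, adjusted p = 0.990). Cxcl12, a chemokine of marrow stroma, and Nrp2, a co-receptor for VEGF-C, were the other abundant genes of the list, at -0.79 and -0.34, and did not pass in either fit.

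Part of the erythroid and leukocyte genes were lower in the mandible with the block. With bone site alone 0 erythroid, megakaryocyte or leukocyte genes passed. An unadjusted p under 0.05 in that fit was reached by 4 of 15, 2 of 7 and 3 of 20, beside 1147 of the 12752 genes tested. Of 15 erythroid genes, 14 had a value below 0 and 13 were lower in the mandible with the block, against 2.05% of all genes tested. The median of the 15 was -1.10. The highest were Hba-a1, Hba-a2 and Hbb-b1, at log2 fold changes of -1.06, -1.07 and -0.98, and globin copies share reads. Hbb-bt and Hbb-b2 had the same values in all 6 libraries, so that 1 measurement counts as 2 of the 13. Haemoglobin made up between 0.717% and 4.51% of all RPKM in the mandible libraries and between 1.87% and 9.78% in the tibia libraries. The tibia to mandible ratio of its summed RPKM was 2.49, 1.796 and 2.03 in dissections 1, 2 and 3. Of 20 leukocyte genes, led by S100a8, S100a9 and Lyz2, 7 were lower in the mandible with the block, against the same 2.05%. The 20 had a median of -0.55 and ratios of 1.59, 1.64 and 1.03. The part of these cells in the site difference of the endothelial genes was not tested.

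Of 13 genes of megakaryocytes, the marrow cells that make platelets, 7 were tested and 1, Nfe2, was lower with the block (2.05% of all genes). Their median was -0.64. Pf4 was the highest at 18.7 and 33.3 RPKM in mandible and tibia, ahead of Nfe2 and Gp9 (-0.57), and between 3 and 6 of the 13 were under 0.1 RPKM in each library. Their summed RPKM ran from 13.6 to 49.5 in the mandible and from 25.8 to 89.2 in the tibia. The 14 mural cell genes, which mark the pericytes and smooth muscle around vessels, had a median of 0.13, with none called in either fit. With bone site alone 1 of the 14 had an unadjusted p under 0.05, beside 1147 of the 12752 genes tested. With the block 2 of the 14 did, beside 3372 of all genes. The summed RPKM of the mural cell genes ran from 94.7 to 238 in the mandible and from 135 to 220 in the tibia. Ndufa4l2, the highest of them at 51.5 and 75.9 RPKM, stood at -0.50, Rgs5, a pericyte gene, at -0.80, and Pdgfrb, the platelet-derived growth factor receptor of pericytes and stroma, at 0.14. Among the 12 osteoblast genes 0 passed with bone site alone. With the block 2 were lower and 1 higher in the mandible, against 2.05% and 4.44% of all genes tested. Col1a1, among the lower, stood at -0.55 (adjusted p = 0.485 in limma, and 0.0310 with block). Spp1 and Bglap stood at 0.46 and 0.08 and did not pass in either fit. The summed osteoblast genes differed by a ratio between 1.06 and 1.10, a sum in which genes of both signs are added.

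**Figure D4:**
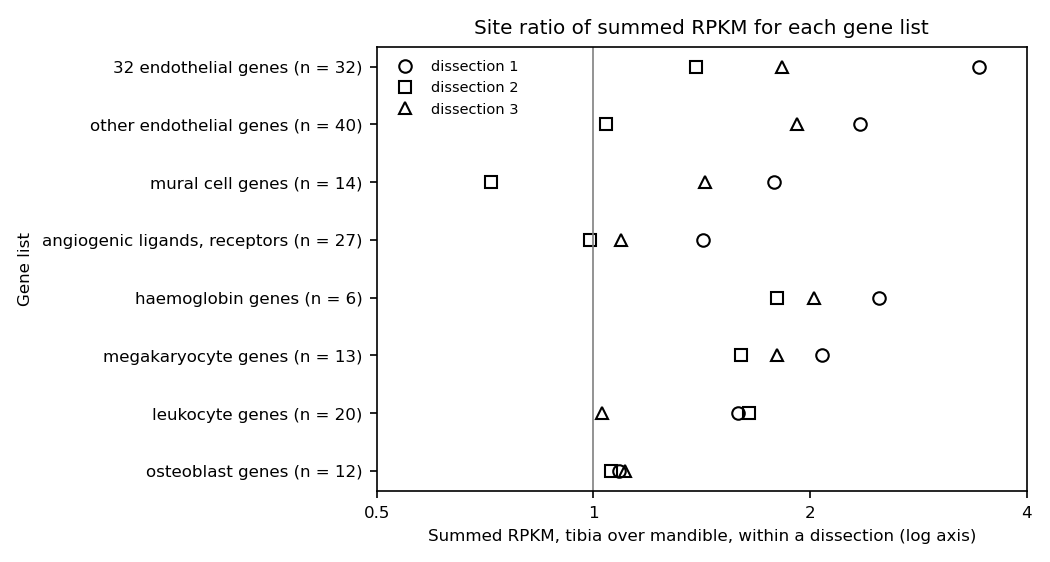
Tibia over mandible ratio of summed RPKM for 8 gene lists, on a log axis, with 1 symbol for each dissection and a line at 1. The 32 endothelial genes lie at 1.39 to 3.43, the haemoglobin genes at 1.796 to 2.49 and the osteoblast genes at 1.06 to 1.10.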

How the data were processed

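Osteoblasts of 2 bones were profiled in 6 libraries from 2 to 8 ng of RNA with the SMART-Seq v4 kit, per the labels. The authors deposited RPKM values for each of 30198 RefSeq transcripts, calculated with Partek 6.15.1207 on mm10 per the file headers. CASAVA 1.8.2, TopHat2 2.1.0 and Partek 6.6 are named in the submitters' processing notes. Whether the counting used strand is not stated in these sources.

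RPKM was summed over the transcripts of a symbol. Genes with a mean of at least 0.5 were compared between bones on a log2(RPKM + 0.5) scale by limma 3.58.1 (R 4.3.3), two-sided, with Benjamini-Hochberg adjustment over all genes at 0.05. This scale understates changes of low genes. The model held bone site. A second fit added the dissection number as a block, since experiment names in the labels are shared by same-numbered libraries of both bones. Deviations of these pairs correlated at 0.594, 0.658 and 0.798 across genes, beside 0.55 and 0.524 for libraries 1 and 2 crossed. Over the 29 tested members they were 0.608, 0.836 and 0.9, beside 0.695 and 0.643 crossed. Pair 1 was below both crossed values, so the member values alone do not settle the pairing of libraries 1 and 2. The fits were tested on simulated data. For the fit with bone site alone these held no dissection effect, so they cannot show how that fit behaves with one. Every preparation was a pool, so p-values reflect variation among pools and not among mice. In the block fit they reflect how the difference between bones varies over the 3 dissections.

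Read totals were the values that put the most low RPKM at 1 read, among 13733 genes with 1 transcript and a GENCODE length. Between 64.4% and 70.4% of low values then lay within 0.05 of whole reads. No count model was fitted, since values of genes with several transcripts are estimated shares.

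Members and lists were chosen with earlier results of these data known. All members are named, and of other lists the 3 highest genes and any that passed the site fit (none did). Vegfc, Pgf, Vegfa, Vegfd, Angpt2, Prox1, Hey1, Nr2f2, Hbb-bt and Hbb-b2 were added after their values were seen. Vegfd was found under its older symbol and Ahsp was not in the table. Coordinates and promoter windows are RefSeq's, in GRCm38.p6, the build of mm10. Other fits varied the pseudocount, filter, scaling, transcripts and libraries. Figures used matplotlib 3.10.9 in Python 3.11.15.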

Additional observations from a re-analysis of the deposited data

How the results depend on the processing

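All 29 tested endothelial genes had a value below 0 under each other pseudocount, filter, scaling and transcript choice in the fits run (27 genes at a mean of at least 1 RPKM). The exceptions came from leaving out libraries: Eng was at 0.32 without mandible library 3, at 0.30 without tibia library 1 and at 0.085 without both libraries of dissection 1, and Dll4 was at 0.10 and 0.054 in the last 2 of these fits. With the block and without dissection 1 both had these same values, and over left-out single libraries Eng ran from -0.95 to 0.32 and Dll4 from -0.69 to 0.10. The cause was not tested.

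The count of these genes lower in the mandible, 0 with bone site alone, was 10 with the dissection number as a block. It was 13 with the block and quantile normalization and 3 without both libraries of dissection 3. Of all genes tested, 2.05% were lower with the block, 3.36% with quantile normalization added and 1.29% without both libraries of dissection 3. Of the fits added after seeing the data, the block gave 16 with median-of-ratios scaling, 10 with a pseudocount of 0.1, and 3, 3 and 9 without dissection 1, 2 or 3. In the same order, 3.09%, 1.94%, 0.878%, 0.533% and 2.73% of all genes tested were called lower. The 10 were among the 13 and among the 16. The count stayed at 0 over the left-out single libraries, and the median ran from -1.17 to -0.74. No endothelial gene was called higher in any fit.

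Over all genes, 124 passed with bone site alone and between 37 and 151 without 1 library. The count was 828 with the block, 809 with quantile normalization added, 771 with median-of-ratios scaling added and 791 with a pseudocount of 0.1. It was 415, 201 and 1162 with the block and without dissection 1, 2 or 3, and 6, 0 and 714 without the block and the same libraries.

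The dissection F-test called 6 endothelial genes (20.7%) and 4392 of all genes (34.4%). The counts were 2 (6.25%) and 2126 (10.8%) with no filter, and 3 (10.3%) and 4171 (32.7%) with median-of-ratios scaling. Without 1 library they ran from 2 to 15 (6.9% to 51.7%) and from 2557 to 4015 (20.1% to 31.5%). Counting a gene as detected from 1 RPKM upwards in each library of a bone, 20 of the 32 were detected in the mandible and 26 in the tibia.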
